A study of Mus musculus with 24 samples.

Results

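The Src, Syk and Tec family kinases described here are 7 non-receptor tyrosine kinases, Blk, Lyn, Fyn, Fgr, Syk, Btk and Tec, chosen by gene symbol as 7 of the 24421 genes in the count tables. They were followed across 2 sorted bone marrow populations and 4 genotypes, with 3 libraries in each of 8 groups and 24 libraries in all. CLPs (common lymphoid progenitors, sorted as Lin-IL-7R+) and B cell progenitors (sorted as B220+IgM-IL-7R+) were CD45.2+ donor cells taken from lethally irradiated wild-type CD45.1+ recipients some weeks after bone marrow transplantation. The donors, young adult mice of both sexes on a mixed 129xC57BL/6 background, all carried a Rosa-YFP reporter and MxCre, whose promoter responds to type I interferon, and all had received poly(I-C), the controls included. They were Plcg1+/+Plcg2+/+ (control), Plcg1 fl/fl with intact Plcg2 (Plcg1-/-Plcg2+/+), Plcg1+/+Plcg2-/-, or Plcg1 fl/fl with loss of Plcg2 (Plcg1-/-Plcg2-/-, double-deficient). The number of donors per genotype is not given in the sources used here, so the p-values measure the spread between these recipients' libraries.

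These kinases stand at the start of antigen receptor signalling in B lineage cells. Src family members such as Lyn, Fyn and Blk phosphorylate the tyrosine motifs of Igα and Igβ, Syk docks on the phosphorylated motifs and phosphorylates the adaptor BLNK, and Btk, a Tec family kinase, then activates PLCγ2. The pre-B cell receptor uses the same enzymes as pro-B cells become pre-B cells, and loss of Syk or Btk is known to impair B cell development. Because PLCγ1 and PLCγ2 act below these kinases, the comparisons ask how the RNA of the upstream enzymes stood in cells that lacked 1 or both of the phospholipases.

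In the GENCODE M21 annotation of GRCm38, the mm10 assembly to which the reads were aligned, Blk lies on chr14:63372836-63417037 on the minus strand. Lyn lies on chr4:3678115-3813122 and Fgr on chr4:132974095-133001910, both on the plus strand. Fyn lies on chr10:39368855-39565381 and Syk on chr13:52583173-52648792, both on the plus strand. Btk lies on chrX:134542336-134583570 and Tec on chr5:72755716-72868483, both on the minus strand. Exon bases, counted once where transcripts overlap, ran from 2698 in Blk to 9362 in Syk, which is why levels are compared between genes only per kb of exon.

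The first 30 coding bases of 5 of the 7 genes are shown because their second codon separates the Src family from the others. They were read from the GENCODE M21 transcripts, with the second codon in capitals; no sequence is shown for Blk and Lyn.
Fyn (transcript chr10:39369764-39565381, plus strand): atgGGCtgtgtgcaatgtaaggataaagaa
Fgr (transcript chr4:132974102-133001910, plus strand): atgGGCtgtgtgttctgcaagaagttggag
Syk (transcript chr13:52596853-52648782, plus strand): atgGCGggaagtgctgtggacagcgccaac
Btk (transcript chrX:134542336-134583140, minus strand): atgGCTgcagtgatactggagagcatcttt
Tec (transcript chr5:72755716-72868444, minus strand): atgAATttcaacactatcctagaagagatt
Fyn and Fgr, as Src family kinases, begin with a glycine codon in the second place, the residue that is myristoylated to hold these enzymes at the membrane, and Syk, Btk and Tec did not have one there. The coding sequences of these transcripts ran from 517 codons in Fgr to 659 in Btk. Among these 5 genes the longest identical stretch of coding bases was 17, between Fyn and Fgr and between Btk and Tec, and against the other Src, Syk and Tec family kinases it was 23, between Fgr and Src.

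Reads on genes ranged from 4232345 to 33219995 in CLP libraries and from 1479582 to 25057223 in B cell progenitor libraries, and reads on no gene made up 17.9% to 45.2% and 59.9% to 87.3%. All 7 kinases passed the filter on low counts, and the lowest level of any of them in any library (14.4 CPM) stood above the level that 3 reads gave in the shallowest library (2.03 CPM). Plcg2 lay between 98.5 and 137 CPM in CLPs labelled Plcg2-/- against 195 and 281 in the other CLPs, and between 72.1 and 111 CPM against 182 and 247 in B cell progenitors. Plcg1 RNA did not separate the labels, with 70.8 to 185 CPM in CLPs labelled Plcg1-/- against 90.2 to 112 in the other CLPs. For protein, the authors' western blots found neither PLCγ1 nor PLCγ2 in YFP+ bone marrow cells from recipients of double-deficient marrow. Libraries labelled Plcg1-/- also held more Xist (1293 to 2313 CPM in CLPs, 1452 to 2189 CPM in B cell progenitors) than the others (23.6 to 742 and 49.4 to 120 CPM) and less of 4 summed Y-linked genes (4.50 to 49.7 and 8.96 to 33.5 CPM against 234 to 327 and 353 to 454 CPM), so comparisons with these groups also compare cells that differ in sex-linked transcripts. Markers of the B lineage (9 of 9 detected) overlapped between the populations, with a summed 899.6 to 6515 CPM in CLPs and 2123 to 8078 CPM in B cell progenitors, and 12 of 12 myeloid markers were detected in both. The control CLP replicate 2 stood apart from its group: it held the highest Blk, Syk and Lyn and the lowest Fgr of all CLP libraries, and values without it are given beside the results that rest on it.

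Of the 7 kinases, Blk was called in double-deficient cells and the other 6 were not. Blk fell about 6-fold in both populations, with a log2 fold change of -2.63 (SE 0.35, edgeR quasi-likelihood test, adjusted p = 0.0257) in CLPs and -2.60 (SE 0.29, adjusted p = 0.00139) in B cell progenitors. The call held in 9 of 12 settings in CLPs, where it was lost without double-deficient replicate 2 or 3 or with the compared groups fitted alone, and in 12 of 12 in B cell progenitors. Blk was thus 1 of 7 kinases called in each population, where 0.0921% of 15209 genes tested were called in CLPs and 0.893% of 15001 genes in B cell progenitors. The kinases were chosen with earlier results of these data known, so this is not an independent comparison. Genes were called where p, adjusted by Benjamini-Hochberg over all genes tested, was at most 0.05 and the log2 fold change was 0.5 or more in either direction. The other 6 kinases had log2 fold changes from -0.75 (Syk) to 0.30 (Tec) in CLPs and -1.18 (Syk) to 0.79 (Fgr) in B cell progenitors. The median of the 7 log2 fold changes was 0.08 in CLPs and -0.04 in B cell progenitors, beside medians over all genes tested of -0.03 and -0.02.

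**Figure D1:**
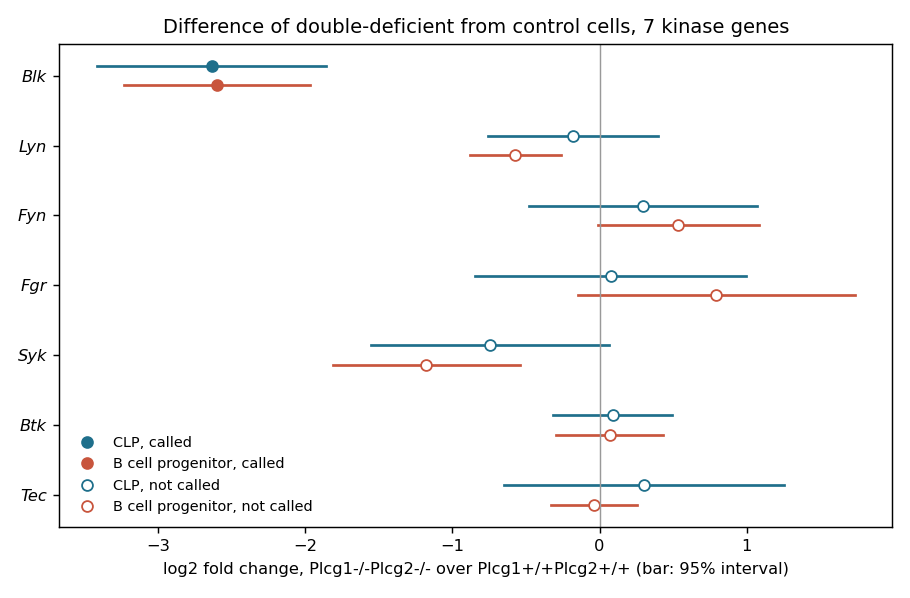
Log2 fold change of each kinase gene in Plcg1-/-Plcg2-/- over Plcg1+/+Plcg2+/+ cells (horizontal axis), with 95% intervals as bars, for CLPs and B cell progenitors; filled points were called. Blk stands at -2.63 and -2.60, to the left of the other 6 genes in both populations, and Syk comes next at -0.75 and -1.18.

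Of the members, 1 of 7 (Blk) had 3 double-deficient CLP libraries on the same side of all 3 control libraries, where 13.6% of all genes tested did so in either direction. In B cell progenitors this held for 4 of 7, Blk, Lyn and Syk below and Fyn above, where 19.2% of all genes did so. At an unadjusted p of at most 0.05 the 3 kinases Blk, Lyn and Syk passed in B cell progenitors, beside 12.3% of all genes tested. Since these are bulk RNA values, fewer cells of a type and less RNA per cell cannot be told apart.

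**Figure D2:**
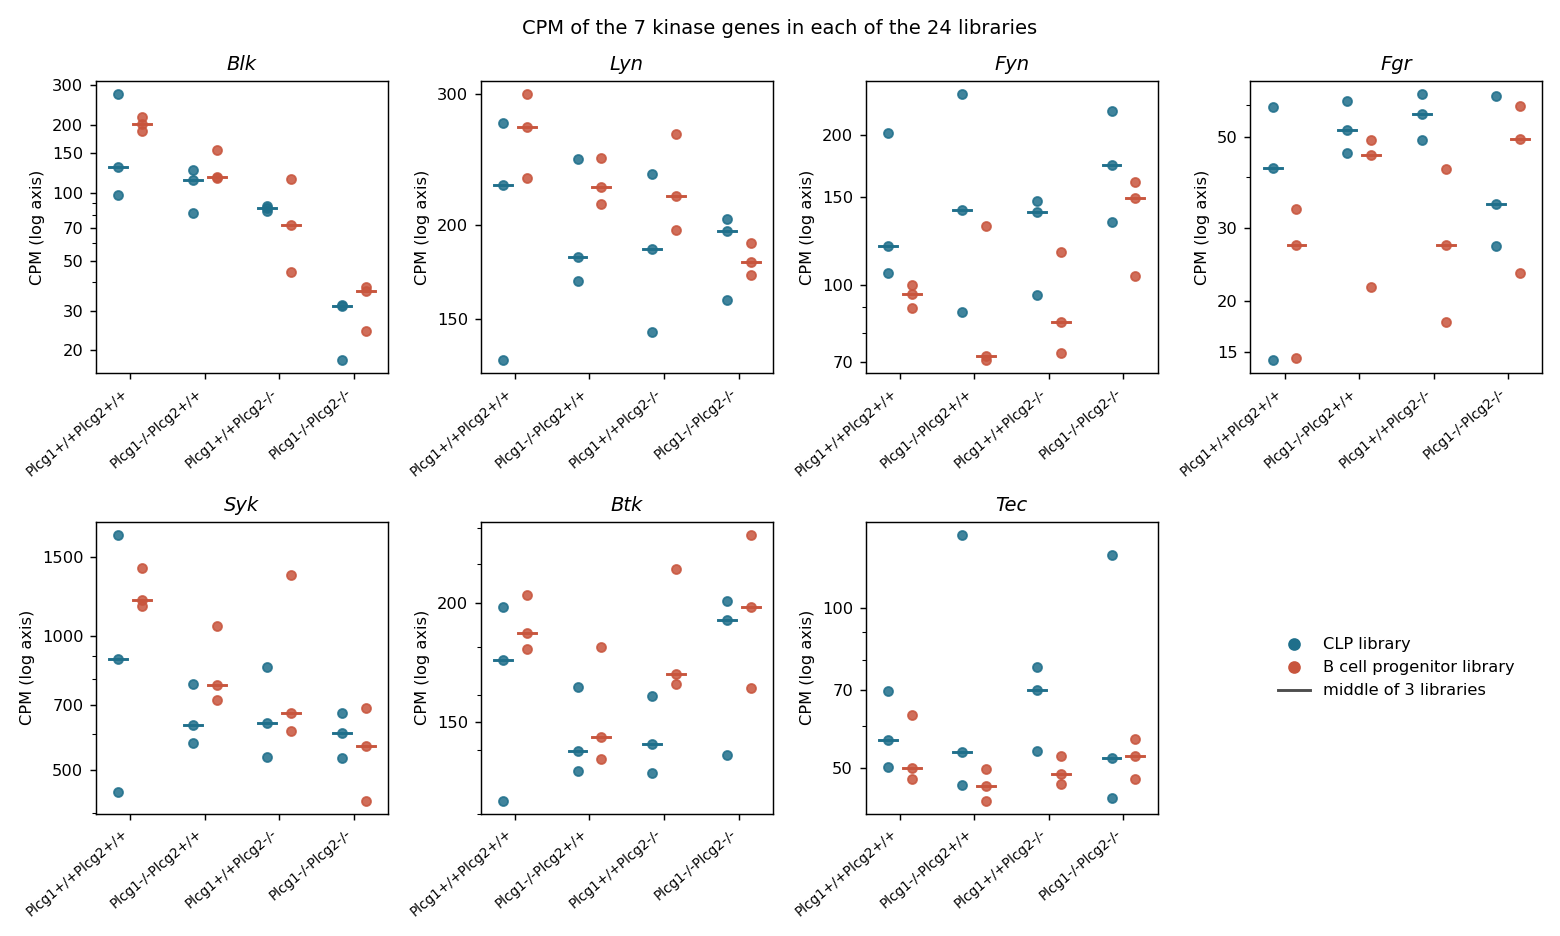
Read counts scaled to library size (CPM, log axis) of the 7 kinase genes in each library (points), by genotype and population, with the middle of 3 libraries as a line. Blk steps down from control to double-deficient cells in both populations, while the ranges of Btk and Tec overlap between control and double-deficient cells.

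Blk is a Src family kinase whose expression is largely restricted to the B lineage, where it serves the pre-B and B cell receptors. Its level, in CPM (reads scaled to the library's reads on genes) on a TMM scale shared by all 24 libraries, was 98.1, 273 and 131 in replicates 1, 2 and 3 of control CLPs and 31.7, 31.5 and 18.1 in double-deficient CLPs. The groups did not overlap. In Plcg1-/-Plcg2+/+ CLPs it was 126, 114 and 81.3 CPM, and in Plcg1+/+Plcg2-/- CLPs it was 87.1, 85.3 and 82.9 CPM. Both single-deficient groups lay between the other two in their means, which were 167 ± 93.3, 107 ± 22.98, 85.1 ± 2.14 and 27.1 ± 7.81 CPM (SD, n = 3) in the order control, Plcg1-/-Plcg2+/+, Plcg1+/+Plcg2-/- and double-deficient.

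The same order was seen in B cell progenitors. Blk stood at 201, 216 and 188 CPM in replicates 1, 2 and 3 of control cells, at 117, 155 and 116 CPM in Plcg1-/-Plcg2+/+ cells, at 71.7, 115 and 44.6 CPM in Plcg1+/+Plcg2-/- cells and at 24.2, 36.6 and 38.1 CPM in double-deficient cells. The control libraries lay above all others, and all double-deficient libraries lay below all others. The means were 202 ± 14.1, 129 ± 22.2, 77.2 ± 35.7 and 33.0 ± 7.62 CPM (SD, n = 3) in that order. The lowest count behind these values was 67 reads, in Plcg1+/+Plcg2-/- replicate 3.

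With the loss of a single phospholipase Blk did not pass the threshold. In CLPs its log2 fold change from control was -0.65 (SE 0.33, unadjusted p = 0.0785) in Plcg1-/-Plcg2+/+ cells, where 0 of 7 kinases and 0.00658% of all genes were called, and -0.96 (SE 0.34, unadjusted p = 0.0148, adjusted p = 0.939) in Plcg1+/+Plcg2-/- cells, where 0 of 7 kinases and 0% of all genes were called by edgeR. At an unadjusted p of at most 0.05, 0 and 1 of the 7 kinases (Blk) passed in these CLP comparisons, beside 2.85% and 3.92% of all genes, and DESeq2 called 0 of 7 in both and 16 and 11 genes in all. In B cell progenitors it was -0.62 (SE 0.27, adjusted p = 0.467) in Plcg1-/-Plcg2+/+ cells and -1.33 (SE 0.28, unadjusted p = 0.000445, adjusted p = 0.607) in Plcg1+/+Plcg2-/- cells, with 0 of 7 kinases called in each and 0.06% and 0.0467% of all genes. DESeq2 called Blk in the last of these (adjusted p = 0.00664), and so did edgeR without the Plcg1+/+Plcg2-/- replicate 2, which had the highest Blk of that group (-1.77, adjusted p = 0.0488). Without the control replicate 2 the 2 values in CLPs shrank to -0.09 and -0.42. The ranges of the single-deficient groups lay below control for 0 of 7 kinases in Plcg1-/-Plcg2+/+ CLPs (6% of all genes in either direction) and for Blk in Plcg1+/+Plcg2-/- CLPs (7.74%). In B cell progenitors they lay below control for Blk and Syk with loss of PLCγ1 (19.5%) and for Blk with loss of PLCγ2 (9.28%).

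Against the single-deficient cells, Blk stood lower in double-deficient cells in all 4 comparisons, of which 1 was called by edgeR. In B cell progenitors the log2 fold change was -1.98 (SE 0.29, adjusted p = 0.0323) from Plcg1-/-Plcg2+/+ to double-deficient cells, where 1 of 7 kinases and 0.213% of all genes were called, and -1.27 (SE 0.28, adjusted p = 0.179) from Plcg1+/+Plcg2-/- cells, where 0 of 7 and 0.153% were called. In CLPs it was -1.99 (SE 0.35, adjusted p = 0.108) from Plcg1-/-Plcg2+/+ cells and -1.67 (SE 0.34, adjusted p = 0.233) from Plcg1+/+Plcg2-/- cells, with 0 of 7 kinases called in each and 0.0263% and 0.0526% of all genes. DESeq2 called Blk in all 4 (adjusted p = 2.79e-05 and 0.00148 in CLPs, 5.13e-08 and 0.00575 in B cell progenitors). It also called more genes in all than edgeR in each of them, with the counts given in the closing section. The edgeR call against Plcg1-/-Plcg2+/+ B cell progenitors was lost with the 2 compared groups fitted alone (adjusted p = 0.0564), without any of their Plcg1-/-Plcg2+/+ replicates 1, 2 and 3 (adjusted p = 0.0830, 0.132 and 0.0507) and without double-deficient replicates 2 and 3 (adjusted p = 0.205 and 0.174). Against Plcg1+/+Plcg2-/- B cell progenitors Blk was called once their replicate 3, the lowest in Blk, was left out (-1.51, adjusted p = 0.0468). In each of the 4 comparisons the 3 double-deficient libraries lay below all 3 single-deficient libraries in Blk. Ranges did not overlap, in either direction, for 9.02% (from Plcg1-/-Plcg2+/+) and 14.4% (from Plcg1+/+Plcg2-/-) of all genes in CLPs and 16.9% and 13.4% in B cell progenitors. Same-numbered libraries deviated together in 3 of these comparisons, and a fit blocked on replicate number did not call Blk in them: adjusted p = 0.0502 and 0.0671 in CLPs, beside 0.112% and 0.171% of all genes called, and 0.0594 from Plcg1+/+Plcg2-/- B cell progenitors, beside 0.307%.

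The fall of Blk in double-deficient cells was tested against the sum of the 2 single losses. It went beyond that sum by -1.02 on the log2 scale in CLPs (SE 0.47, 95% interval -2.06 to 0.01, adjusted p = 0.862; -1.55 without the control replicate 2) and by -0.65 in B cell progenitors (SE 0.39, 95% interval -1.50 to 0.20, adjusted p = 0.493), and neither was called. No kinase departed from the sum of the single losses in either population by this test, beside 0.0197% and 0.0267% of all genes; DESeq2 called 0 kinases, and 0 passed at an unadjusted p of at most 0.05, beside 4.77% of all CLP genes tested and 15.3% for B cell progenitors. The double-deficient effect on Blk differed by 0.03 between the populations (SE 0.46, 95% interval -0.94 to 0.99), and 0 of 7 kinases and 0% of all genes were called for such a difference by edgeR. DESeq2 called 0 genes, and 0 of the 7 kinases and 1.37% of all genes passed an unadjusted p of at most 0.05. Without the control CLP replicate 2 the difference for Blk was -0.50.

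**Figure D3:**
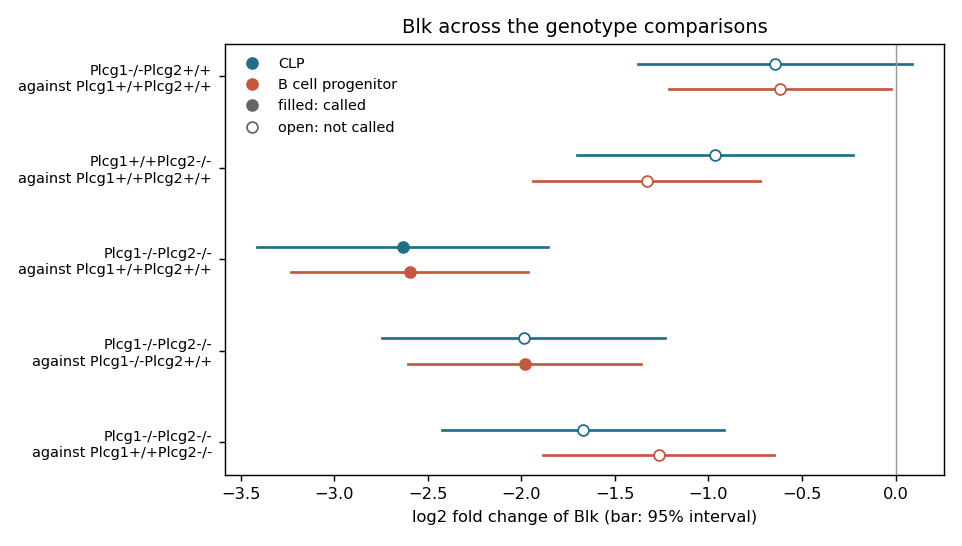
Log2 fold change of Blk (horizontal axis) with 95% intervals as bars in 5 genotype comparisons, for CLPs and B cell progenitors; filled points were called. All 10 values lie below 0, and the 3 called ones are -2.63, -2.60 and -1.98.

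Summed markers of mature B cells were lower in double-deficient than in control B cell progenitors, while the single-deficient groups overlapped control. The summed level of the 5 of 6 such markers found in the tables was 503 to 818 CPM in control and 137 to 444 CPM in double-deficient B cell progenitors, and 334 to 1007 CPM and 189.7 to 459 CPM in CLPs, where the ranges overlapped. The markers listed were Ms4a1, Ighd, Fcer2a, Cr2, H2-Aa and Cd74, and their sum need not measure mature B cells alone. Cr2 held 8.37 to 9.63 CPM of the sum in control B cell progenitors. In the single-deficient groups the summed level was 532 to 1206 CPM in B cell progenitors and 495 to 1230 CPM in CLPs, while Blk was lower there than in control cells in its means. Summed B lineage markers were 3440 to 4869 CPM in control and 2293 to 8078 CPM in double-deficient B cell progenitors and overlapped, so that Blk fell where the B lineage list as a whole did not separate the groups. By flow cytometry the paper found hardly any CD25+ pre-B cells in recipients of double-deficient marrow, and fewer with loss of PLCγ2 alone. The sort of B cell progenitors did not select on CD25. The parts of mature B cell and pre-B cell content in the fall of Blk were not tested. Without the control CLP replicate 2 the fall in CLPs was -2.07 and stayed called (adjusted p = 0.0438). The call in CLPs was lost without the double-deficient replicate 2 (-2.75, adjusted p = 0.118) or replicate 3 (-2.41, adjusted p = 0.1404), and with the 2 compared groups fitted alone (-2.64, adjusted p = 0.346); in B cell progenitors it held with each of the 6 libraries left out.

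Lyn, a Src family kinase with both activating roles and inhibitory ones through receptors such as CD22, was lower in double-deficient B cell progenitors without passing the threshold. It stood at 231, 299 and 270.3 CPM in replicates 1, 2 and 3 of control cells and at 179, 172 and 189 CPM in double-deficient cells. The groups did not overlap, and the log2 fold change was -0.57 (SE 0.14, 95% interval -0.88 to -0.26, unadjusted p = 0.00167, adjusted p = 0.107). In the single-deficient cells Lyn lay at 214 to 246 CPM with loss of PLCγ1 and at 197 to 265 CPM with loss of PLCγ2, above all double-deficient libraries in both. The log2 fold changes of double-deficient cells from these groups were -0.37 (adjusted p = 0.220) and -0.36 (adjusted p = 0.409).

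In CLPs Lyn showed no such separation. Its values were 132, 274 and 226 CPM in control replicates 1, 2 and 3 and 197, 159 and 204 CPM in double-deficient ones, and the log2 fold change was -0.18 (SE 0.26, 95% interval -0.76 to 0.40). Without the control replicate 2 it turned to 0.07. The difference of the double-deficient effect between the populations was -0.40 for Lyn (SE 0.31, adjusted p = 1.00), so an effect confined to B cell progenitors was not shown.

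Fyn, the Src family kinase that is also prominent in T cells, stood higher in double-deficient B cell progenitors, again without passing the threshold. It was at 95.6, 90.0 and 99.8 CPM in replicates 1, 2 and 3 of control cells and at 104, 160.4 and 149 CPM in double-deficient cells. The groups did not overlap, but the lowest double-deficient library was close to the highest control library. The log2 fold change was 0.53 (SE 0.25, 95% interval -0.01 to 1.08, adjusted p = 0.419), and against the single-deficient groups, whose libraries lay between 70.6 and 131 CPM and overlapped the double-deficient ones, it was 0.58 (adjusted p = 0.276) and 0.60 (adjusted p = 0.430). In CLPs the control values of 202, 106 and 119 CPM and the double-deficient values of 133, 223 and 173 CPM overlapped, with a log2 fold change of 0.29 (SE 0.35).

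Fgr, a Src family kinase known mainly from myeloid cells, overlapped between control and double-deficient cells in both populations. In B cell progenitors it was at 27.4, 14.5 and 33.4 CPM in replicates 1, 2 and 3 of control cells and at 59.6, 23.4 and 49.5 CPM in double-deficient cells. The log2 fold change was 0.79 (SE 0.43, 95% interval -0.15 to 1.73, adjusted p = 0.485). In CLPs the control values were 59.3, 14.4 and 42.2 CPM and the double-deficient values 62.8, 27.1 and 34.4 CPM, with a log2 fold change of 0.08 (SE 0.42) that turned to -0.27 without the control replicate 2. The summed level of the 12 myeloid markers ranged from 1419 to 4514 CPM in control and from 2666 to 6821 CPM in double-deficient B cell progenitors, and from 2327 to 3939 CPM and 3480 to 7904 CPM in CLPs. Their part in the level of Fgr was not tested.

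Syk, which binds the phosphorylated motifs of Igα and Igβ and passes the signal to BLNK, had the second largest difference. It stood at 1165, 1417 and 1205 CPM in replicates 1, 2 and 3 of control B cell progenitors and at 426, 688 and 566 CPM in double-deficient ones. All 3 double-deficient libraries were below all 3 control libraries, and the log2 fold change was -1.18 (SE 0.29, 95% interval -1.81 to -0.54, unadjusted p = 0.00167). Its adjusted p of 0.107 did not pass the threshold. DESeq2 called 3 of the 7 kinases here, Blk, Syk (adjusted p = 0.00373) and Lyn (adjusted p = 0.00749), among 2.96% of all genes, and edgeR on the 2 compared groups alone called Blk and Syk (adjusted p = 0.0240) among 1.87% of the genes it tested.

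The single-deficient B cell progenitors lay between these groups in their means. Syk was at 716, 1049.5 and 776 CPM in replicates 1, 2 and 3 of Plcg1-/-Plcg2+/+ cells, below all control libraries, and at 671, 1367 and 609 CPM in Plcg1+/+Plcg2-/- cells, where replicate 2 lay in the control range and replicates 1 and 3 in the double-deficient range. The means were 1262 ± 135, 847 ± 178, 882 ± 421 and 559.8 ± 131 CPM (SD, n = 3) in the order control, Plcg1-/-Plcg2+/+, Plcg1+/+Plcg2-/- and double-deficient. Double-deficient cells differed from the single-deficient groups by -0.63 (adjusted p = 0.305) and -0.68 (adjusted p = 0.427) on the log2 scale.

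In CLPs the control libraries were spread widely for Syk, at 445, 1683 and 885 CPM in replicates 1, 2 and 3, and the double-deficient libraries at 530.0, 605 and 671 CPM lay inside that range. The log2 fold change was -0.75 (SE 0.37, adjusted p = 0.681), and -0.13 without the control replicate 2. The difference of the double-deficient effect between the populations was -0.44 for Syk (SE 0.49, 95% interval -1.46 to 0.59), and -1.03 without that library.

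Btk, the Tec family kinase that activates PLCγ2 and is mutated in X-linked agammaglobulinaemia, did not separate the genotypes. In B cell progenitors it was at 179, 204 and 186 CPM in replicates 1, 2 and 3 of control cells and at 163, 236 and 198 CPM in double-deficient cells, with a log2 fold change of 0.07 (SE 0.17, 95% interval -0.30 to 0.43). In CLPs it was at 124, 198 and 174 CPM in control and 138, 201 and 192 CPM in double-deficient cells, with a log2 fold change of 0.09 (SE 0.18, 95% interval -0.31 to 0.49). The groups overlapped in both populations. Btk is X-linked, and Xist differed between these groups as given above.

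Tec, which gives its family its name and can act beside Btk, stood at 47.7 to 62.8 CPM in control and 47.6 to 56.7 CPM in double-deficient B cell progenitors, with a log2 fold change of -0.04 (SE 0.13, 95% interval -0.33 to 0.26). In CLPs single libraries stood out: Plcg1-/-Plcg2+/+ replicate 2 held 137 CPM beside 53.7 and 46.4 CPM, and double-deficient replicate 2 held 126 CPM beside 52.3 and 44.0 CPM, while control CLPs lay between 50.2 and 69.9 CPM. The log2 fold change there was 0.30 (SE 0.43, 95% interval -0.65 to 1.25). The intervals for Btk in both populations and for Tec in B cell progenitors leave out changes of 0.50 or more on the log2 scale in either direction, and that for Tec in CLPs does not.

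Among the 6 kinases other than Blk, the log2 fold changes from control in the single-deficient groups spanned -0.61 (Syk) to 0.43 (Fgr) with loss of PLCγ1 and -0.57 (Syk) to 0.53 (Fgr) with loss of PLCγ2 in CLPs. They spanned -0.55 (Syk) to 0.63 (Fgr) and -0.50 (Syk) to 0.18 (Fgr) in B cell progenitors. Syk had the lowest and Fgr the highest value of these 6 in all 4 comparisons, which share their control libraries within a population. At an unadjusted p of at most 0.05, 3 kinases (Blk, Lyn and Fyn) passed between double-deficient and Plcg1-/-Plcg2+/+ B cell progenitors, beside 16.6% of all genes, and 4 (Blk, Lyn, Fyn and Syk) between double-deficient and Plcg1+/+Plcg2-/- cells, beside 11% of all genes.

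Per kb of exon, Syk was the highest of the 7 kinases in 7 of 8 groups. In control B cell progenitors the order was Syk (135 ± 14.5 CPM per kb), Blk (74.7 ± 5.23), Lyn (65.6 ± 8.37), Btk (60.3 ± 4.04), Fyn (21.8 ± 1.14), Tec (14.3 ± 2.17) and Fgr (6.50 ± 2.502), each as mean ± SD of 3 libraries. The ranges of neighbours overlapped between Blk and Lyn and between Lyn and Btk, and the other neighbours in the order did not overlap. In double-deficient B cell progenitors Btk came first (63.2 ± 11.6 CPM per kb) with a range that overlapped that of Syk (59.8 ± 14.02), and Blk had moved from second to sixth place (12.2 ± 2.82), where its range overlapped those of Tec (13.99 ± 1.21) and Fgr (11.4 ± 4.84).

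In control CLPs the order began with Syk (107 ± 67.02 CPM per kb), Blk (62.1 ± 34.6), Btk (52.6 ± 12.1) and Lyn (51.8 ± 17.7), whose neighbouring ranges overlapped. Fyn followed at 32.6 ± 11.9, clear of Tec at 15.7 ± 2.69, and Fgr was last at 9.99 ± 5.87, overlapping Tec. In double-deficient CLPs Blk was last (10.1 ± 2.89 CPM per kb) beside Fgr (10.7 ± 4.88), with overlapping ranges, while Syk was first (64.3 ± 7.54) and its range overlapped that of Btk (56.3 ± 10.8). In the single-deficient groups of both populations Blk held the fourth place, between 28.6 and 47.9 CPM per kb in its means.

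**Figure D4:**
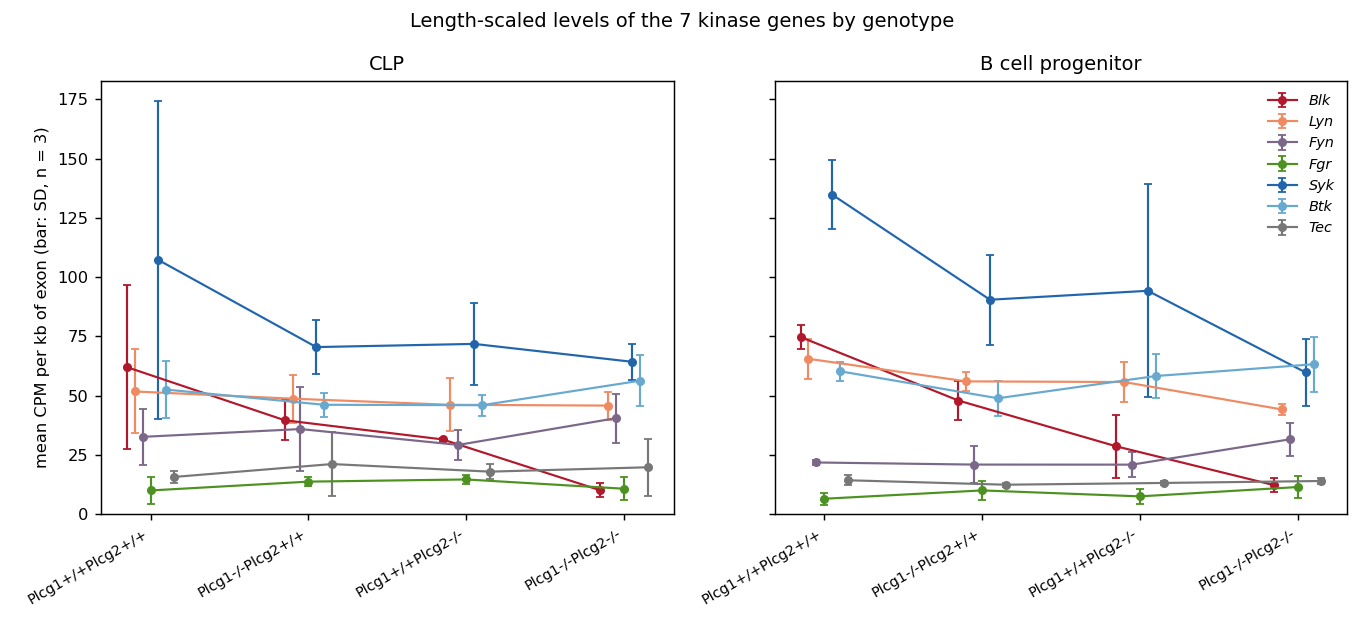
Mean CPM per kb of exon of each kinase gene by genotype (points, with SD of 3 libraries as bars; lines only join the points of a gene), for CLPs on the left and B cell progenitors on the right. Blk descends from second place in control cells to 10.1 and 12.2 CPM per kb in double-deficient cells, and Btk stays between 46.0 and 63.2 CPM per kb in all groups.

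Between the 2 populations 0 of the 7 kinases were called in each genotype by edgeR, as by DESeq2. Before adjustment, p was at most 0.05 for 2 of 7 in Plcg1-/-Plcg2+/+ cells (Fyn and Tec), where 26.5% of all genes reached this, and for 1 of 7 in Plcg1+/+Plcg2-/- cells (Fgr), where 16.2% did so. The shares of all 17212 genes tested that were called were 3.5% in control, 3.78% in Plcg1-/-Plcg2+/+, 3.21% in Plcg1+/+Plcg2-/- and 3.24% in double-deficient cells. Log2 fold changes of B cell progenitors over CLPs spanned -0.64 (Fgr) to 0.34 (Lyn) among the 6 kinases other than Blk in control cells. Blk differed by 0.28 (SE 0.32), 0.28 (SE 0.32), -0.11 (SE 0.33) and 0.30 (SE 0.33) in control, Plcg1-/-Plcg2+/+, Plcg1+/+Plcg2-/- and double-deficient cells, and by 0.81 in control cells without the CLP replicate 2 (adjusted p = 0.154).

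Fyn stood lower in B cell progenitors than in CLPs in all 4 genotypes, by -0.58 on the log2 scale in control cells (SE 0.33, adjusted p = 0.408), where the ranges did not overlap (as for 20.9% of all genes), and by -0.78 in Plcg1-/-Plcg2+/+ cells (SE 0.33, adjusted p = 0.148), where they did. Tec differed by -0.77 in the latter cells (SE 0.35, adjusted p = 0.168), and this value includes the CLP library with 137 CPM. In Plcg1+/+Plcg2-/- cells Fgr was at 57.0, 49.1 and 63.5 CPM in CLPs and at 41.8, 17.8 and 27.3 CPM in B cell progenitors of replicates 1, 2 and 3, so that it was lower in the B cell progenitors of 3 of 3 mice and the ranges did not overlap (as for 18.3% of all genes). Its log2 fold change was -0.99 (SE 0.47, adjusted p = 0.302), and with each mouse as a block it was -1.05 and called (adjusted p = 0.0457). The share of all genes called with that block is not given here, so the call has no background beside it. The share of reads on no gene differed between the populations as given above, and its part in these values was not tested.

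The rest of the pathway was described by 5 lists of 57 genes in all: other kinases of these families, receptors and co-receptors, inhibitory receptors, adaptors and substrates, and negative regulators. These lists, too, were chosen with earlier results of these data known. In double-deficient CLPs 1 of the 57 genes was called, Plcg2 itself, which is the targeted gene, beside 0.0921% of all genes tested. In double-deficient B cell progenitors 3 were called, all lower: Plcg2, Cd22 and Dok3, beside 0.893% of all genes tested. The median log2 fold changes in B cell progenitors were 0.64 for the 8 other kinases, 0.17 for the 12 receptors, -0.31 for the 8 inhibitory receptors, 0.28 for the 16 adaptors and substrates and 0.20 for the 13 negative regulators. In CLPs they were -0.23, 0.48, -0.40, 0.21 and 0.17 in the same order. For the other kinases in B cell progenitors the median against control was also 0.89 with loss of PLCγ1 alone and 0.41 with loss of PLCγ2 alone. Some of these kinases were near the floor in control B cell progenitors: Src at 0.589 to 1.13 CPM, Yes1 at 1.06 to 2.55 CPM and Txk at 1.93 to 3.34 CPM.

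Cd22, an inhibitory co-receptor that Lyn phosphorylates, fell from 125 to 145 CPM in control B cell progenitors to 34.7 to 48.6 CPM in double-deficient ones, a log2 fold change of -1.62 (SE 0.24, adjusted p = 0.00747). It was also called lower in double-deficient B cell progenitors than in both single-deficient groups (-1.36 and -1.56, adjusted p = 0.0465 and 0.0294). Cd72, Siglecg and Pecam1, also inhibitory receptors, lay below control there without being called. Cd72 was at 361 to 499 CPM in control and 79.0 to 161 CPM in double-deficient B cell progenitors. Siglecg was at 251 to 334 against 118 to 177 CPM, and Pecam1 at 126 to 157 against 110 to 113 CPM. The ranges of Fcgr2b, Cd5, Pirb and Lair1 overlapped. No overlap was seen for 19.2% of all genes in this comparison. Dok3, an adaptor that dampens B cell receptor signalling, fell from 372 to 446 CPM to 169 to 193 CPM (log2 fold change -1.16, SE 0.20, adjusted p = 0.0180). The negative regulator Csk was not called but lay lower, at 470 to 559 CPM in control and 288 to 398 CPM in double-deficient B cell progenitors. Matk of the same list lay higher, at 14.8 to 21.9 against 27.9 to 36.4 CPM, and was not called either. The signal chains Cd79a and Cd79b, on which Lyn, Blk and Syk act, had log2 fold changes of 0.19 (SE 0.38) and -0.30 (SE 0.32) with overlapping ranges, and the adaptor Blnk had 0.32 (SE 0.44). Some other receptors and adaptors of the lists did not overlap, without being called. Cr2 was lower in double-deficient B cell progenitors (1.72 to 4.76 against 8.37 to 9.63 CPM in control). Vpreb2 was higher (28.2 to 79.8 against 16.1 to 23.5 CPM). Lat (30.5 to 43.8 against 19.3 to 23.6 CPM) and Lcp2 (66.5 to 90.8 against 33.5 to 60.4 CPM) were higher too. Zap70, the relative of Syk that serves the T cell receptor, was at 23.3 to 30.2 CPM in control and 49.8 to 64.1 CPM in double-deficient B cell progenitors without being called (log2 fold change 1.17, SE 0.36, adjusted p = 0.196).

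**Figure D5:**
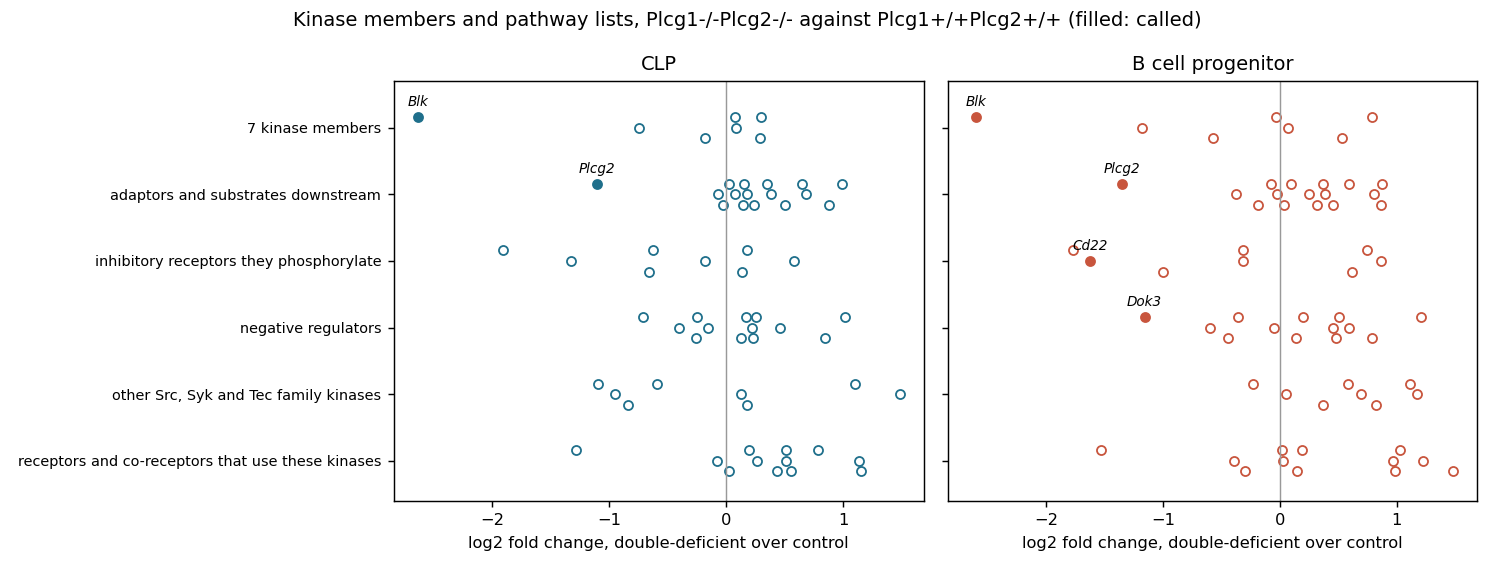
Log2 fold change in Plcg1-/-Plcg2-/- over Plcg1+/+Plcg2+/+ cells (horizontal axis) of the 7 kinase members and the genes of 5 pathway lists (rows; each point is 1 gene), with called genes filled and named. Blk lies farthest to the left of all genes shown in both populations.

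In the single-deficient groups 1 list gene was called against control, Plcg2 in Plcg1+/+Plcg2-/- B cell progenitors (-1.37, adjusted p = 0.0187), where 0.0467% of all genes were called. Between the populations 1 of the 57 genes was called in 1 of 4 genotypes, Yes1 in double-deficient cells, beside 3.24% of all genes tested. Yes1, a Src family kinase, was higher in double-deficient B cell progenitors (1.63 to 4.10 CPM) than in double-deficient CLPs (0.446 to 0.667 CPM). Its log2 fold change was 2.24 (SE 0.62, adjusted p = 0.0489). These CLP values lay below the control B cell progenitor values of Yes1 given above as near the floor, so the call rests on low counts.

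Likeness of pattern was measured by Pearson's r of log2 CPM over the 24 libraries, with the mean of each population subtracted, among 14172 genes, and is given as a description: the libraries come from 12 mice and share genotype and depth. The 3 genes most like Blk were Hdac5 (r = 0.928), Myo1e (0.927) and Il2ra (0.926), the last of which encodes CD25, a surface marker of pre-B cells. Lyn was most like Dok3 (0.897), Siglecg (0.881) and Spib (0.880), and Syk was most like Sbk1 (0.970), Neil1 (0.956) and Cpm (0.950). Fgr was most like Mpeg1 (0.965), which is known from macrophages, Gria3 (0.940) and Rnase6 (0.937). Fyn was most like Jade2 (0.914), Lat (0.905) and Stat4 (0.896), Btk most like Cd37 (0.922), Msra (0.902) and 4933439C10Rik (0.900), and Tec most like Far2 (0.866), Nedd4 (0.864) and Suox (0.856). Among the kinases themselves the highest r was between Lyn and Syk (0.855), followed by Blk and Syk (0.731). Fgr ran opposite to Syk (-0.734) and Btk (-0.732), and Fyn to Lyn (-0.731). In B cell progenitors and CLPs taken apart, r was 0.895 and 0.846 for Lyn and Syk. It was 0.890 and 0.552 for Blk and Syk, and 0.891 and 0.314 for Blk and Lyn.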

How the data were processed

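Poly(A) RNA of sorted CLPs and B cell progenitors was sequenced on a NextSeq 500. Reads were aligned by the authors to mm10 (STAR 2.5.0a in the submitters' processing notes), and they deposited, for each library, raw counts over 24421 genes without normalization; the counting program, and whether it used strand, are not given in the sources used here. The 2 further lines of a table, no_feature and ambiguous, name no gene and entered neither library sizes nor tests; the first held 17.9% to 45.2% of the reads of CLP libraries and 59.9% to 87.3% of those of B cell progenitors. Groups, replicate numbers and mouse numbers came from the sample labels. The Src, Syk and Tec family members and the gene lists were chosen with earlier results of these data known.

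Tests on these deposited counts used edgeR 4.0.16 under R 4.3.3 (TMM, filterByExpr, glmQLFit, glmQLFTest, Benjamini-Hochberg adjustment), with the 12 libraries of a population in 1 fit for genotype comparisons and all 24 in 1 fit for comparisons between populations, 17 comparisons in all. CPM come from a single TMM scale over 24 libraries. The SE of a log2 fold change is its size over the square root of its F. The calculations were tested on simulated counts. All 7 members are named, and from the lists those called in a comparison. Cd79a, Cd79b, Blnk, Zap70, Cr2, Vpreb2, Lat, Lcp2, Csk, Matk and the inhibitory receptors other than Cd22 were named after their values were seen. Exon lengths and coding starts came from GENCODE M21; coding starts are shown for the 5 of 7 members that matched an entry in the RefSeq promoter table, of which nothing else was used.

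Counts of replicate libraries differed far beyond sampling noise (chi-square over its degrees of freedom, 8.28 to 133), so each counted as its own sample. The CLP and B cell progenitor libraries that carry the same mouse number in their titles come from 1 mouse; over all genes their deviations from the group means correlated by 0.173 on average, against -0.088 between different mice. Replicate numbers were taken to pair 2 genotypes of a population where all 3 same-numbered pairs correlated over 0.1, which held for 4 of 12 pairs of groups, none with the control: all 3 among the deficient CLP groups (r 0.259 to 0.689) and Plcg1+/+Plcg2-/- with double-deficient B cell progenitors (r 0.207 to 0.334). Precision from depth covers counting error only. Alternatives were DESeq2 1.42.0, RLE size factors, dropping the low-count filter, dropping the fold limit, the replicate number or mouse as a block, only the compared groups, and each library left out. Figures were drawn with matplotlib 3.10.9.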

Additional observations from a re-analysis of the deposited data

How the results depend on the processing

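The number of kinases called moved in 8 of 17 comparisons. For double-deficient against control CLPs it was 1, and 0 with only the compared groups and 0 to 1 with a library left out. For double-deficient against control B cell progenitors it was 1, and 3 with DESeq2 (Blk, Syk and Lyn), 2 with only the compared groups (Blk and Syk) and 4 with a block for replicate number (Blk, Syk with adjusted p = 0.00415, Lyn with 0.0330 and Fgr with 0.0209). For Plcg1+/+Plcg2-/- against control B cell progenitors and for double-deficient against Plcg1+/+Plcg2-/- B cell progenitors it was 0, and 1 (Blk) with DESeq2 and 0 to 1 with a library left out. For double-deficient against either single-deficient CLP group it was 0, and 1 (Blk) with DESeq2. For double-deficient against Plcg1-/-Plcg2+/+ B cell progenitors it was 1, and 0 with only the compared groups and 0 to 1 with a library left out. Between the populations in Plcg1+/+Plcg2-/- cells it was 0, and 1 (Fgr) with the mouse as a block, for which no share of all genes is given. That block changed no other call between the populations. Scaling by RLE, dropping the low-count filter and dropping the fold limit moved none of these counts, and the cause of the moves was not tested. In all, 200 of 219 recomputed counts of kinases stayed the same, and the count was 0 in most comparisons. Of the recomputed gene values, 477 of 517 kept their direction and their side of the threshold.

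Same-numbered libraries of different genotypes had deviations correlated over 0.1 in 13 of 18 pairs in CLPs and 9 of 18 in B cell progenitors, not in all pairs with control libraries, and 10 of 12 and 8 of 12 libraries correlated best with their own number. With the replicate block 50 genes in all were called in double-deficient against control CLPs (14 without it) and 550 in B cell progenitors (134 without it), and DESeq2 called 169 and 444. For double-deficient against Plcg1-/-Plcg2+/+ and Plcg1+/+Plcg2-/- cells the counts over all genes were 4 and 8 in CLPs and 32 and 23 in B cell progenitors, with DESeq2 96, 104, 802 and 161, and with the block 17, 26, 100 and 46. For the departure from the sum of the single losses they were 3 in CLPs and 4 in B cell progenitors, and 29 and 642 with DESeq2. For Plcg1-/-Plcg2+/+ and Plcg1+/+Plcg2-/- against control B cell progenitors they were 9 and 7, and 29 and 17 with DESeq2. In CLPs they were 1 and 0, and 16 and 11 with DESeq2.

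Some small log2 fold changes changed sign. With a library left out, double-deficient against control CLPs spanned -0.10 to 0.26 for Btk, -0.36 to 0.50 for Fgr, -0.44 to 0.075 for Lyn and -0.29 to 0.57 for Tec, and B cell progenitors spanned -0.068 to 0.20 for Btk and -0.11 to 0.12 for Tec. Blk between the populations spanned -0.045 to 0.28 in Plcg1-/-Plcg2+/+ and -0.60 to 0.036 in Plcg1+/+Plcg2-/- cells. Its difference of the double-deficient effect between populations spanned -0.50 to 0.28, and was -0.086 with the mouse as a block. Depth was lowest in B cell progenitors, where 3 reads stood for up to 2.03 CPM.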
